A study of Mus musculus with 4 samples.

Results

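Pdx1, Nkx6-1, Nkx2-2, Neurod1, Isl1, Pax6, Rfx6, Mnx1, Insm1 and Foxa2 encode transcription factors of the β cell and of the islet endocrine lineage in general. The rule that chose them is a list of symbols with no threshold on a measured value, drawn up with earlier results of these data known, and all 10 were found once among the 32285 genes of the matrices. They were examined in dissociated pancreatic islets of male C57BL6/N mice by droplet single-cell RNA sequencing, which counts mRNA molecules by their unique molecular identifiers (UMIs). Mice carried either wild-type Pax4 (WT) or a homozygous knock-in allele of Pax4 (HH) that encodes R200H, the counterpart of the human R192H variant, and both genotypes came from crosses of heterozygous mice. WT and HH mice were 12 weeks old on a standard chow diet (SCD) or, with a high-fat diet (HFD) over the last 4 weeks, 16 weeks old. Each of the 4 groups, WT SCD, HH SCD, WT HFD and HH HFD, had 1 library from the pooled islets of 2 to 3 mice. No difference between HH and WT therefore has a replicate check, library and genotype cannot be told apart within a diet, and diet cannot be told apart from age.

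These factors act as a network in which several members bind each other's enhancers and the insulin gene. Pdx1, Nkx6-1 and Mnx1 are known to set and keep the β cell fate. Pdx1 and Nkx6-1 also hold down the α cell programme, and loss of either in adult β cells lowers glucose-stimulated insulin secretion. Nkx2-2, Neurod1, Isl1, Pax6, Rfx6 and Insm1 are used by more than 1 endocrine cell type, and Foxa2 opens chromatin from the earliest foregut stage onwards. Pax4 itself is a paired homeodomain repressor that favours the β and δ over the α fate in the embryo.

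The 4 libraries held 5123, 4665, 5307 and 7123 barcodes and 87472976, 79712168, 68011082 and 104810105 UMIs in the order WT SCD, HH SCD, WT HFD and HH HFD, which is the order of all value lists in this text. The filters on mitochondrial UMIs, total UMIs and genes per cell kept 61.9%, 67.8%, 38.3% and 61.6% of barcodes, so the WT HFD library stood apart: 53.7% of its barcodes had under 2000 genes and 36.8% had 10% or more mitochondrial UMIs. Any pair of libraries shared 6 to 11 barcodes. Pax4 had 0 UMIs in every barcode of every library, which allows up to 0.0286 to 0.0441 UMIs per 1000000 UMIs (CPM), so the knock-in could not be checked at this gene. A cell was placed by its dominant hormone, which had to hold at least 60% of its hormone UMIs and 5% of all its UMIs. This gave 1965, 1945, 1086 and 2761 insulin cells (β cells), 389, 447, 270 and 450 glucagon cells (α), 292, 309, 148 and 268 somatostatin cells (δ) and 107, 141, 67 and 185 pancreatic polypeptide cells (PP), while 126 cells lay within 5 percentage points of the first threshold. Markers not used for the placing followed it. Irx2, an α cell factor, stood at 126 to 189 CPM in α and 1.79 to 2.60 in β cells, Hhex at 318 to 399 CPM in δ cells and at most 4.41 in the other 3 groups, and Mafa at 435 to 868 CPM in β cells and at most 15.1 elsewhere. Endothelial cells of the same libraries, 118, 89, 142 and 191 in number, served as the measure of free RNA.

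RefSeq promoters of GRCm38.p6, which run from 250 bases before to 50 bases after a transcription start, were matched for 9 of the 10 genes. Those of the 3 genes with the largest differences between β and α cells, and of Isl1, which was lower in β cells than in every other hormone group, are printed 5′ to 3′ on the gene's strand. TAAT, the core bound by many homeodomains (searched on both strands, so also as ATTA), and CANNTG, the core bound by factors such as Neurod1, are in capitals, and no match of one motif overlapped a match of the other.
Pdx1, chr5:147269847-147270146, plus strand: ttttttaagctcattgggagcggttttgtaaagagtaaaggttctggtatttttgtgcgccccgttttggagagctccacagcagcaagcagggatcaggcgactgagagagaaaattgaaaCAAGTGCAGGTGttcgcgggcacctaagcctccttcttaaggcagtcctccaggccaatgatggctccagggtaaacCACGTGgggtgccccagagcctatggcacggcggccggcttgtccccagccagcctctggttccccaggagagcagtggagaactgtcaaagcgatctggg
Nkx6-1, chr5:101664662-101664961, minus strand: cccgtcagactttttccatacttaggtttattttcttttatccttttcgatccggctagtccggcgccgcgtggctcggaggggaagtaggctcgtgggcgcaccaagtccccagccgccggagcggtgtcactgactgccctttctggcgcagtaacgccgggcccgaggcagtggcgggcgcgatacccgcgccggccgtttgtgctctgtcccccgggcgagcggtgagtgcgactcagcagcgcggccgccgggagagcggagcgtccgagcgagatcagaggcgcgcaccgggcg
Mnx1, chr5:29478421-29478720, minus strand: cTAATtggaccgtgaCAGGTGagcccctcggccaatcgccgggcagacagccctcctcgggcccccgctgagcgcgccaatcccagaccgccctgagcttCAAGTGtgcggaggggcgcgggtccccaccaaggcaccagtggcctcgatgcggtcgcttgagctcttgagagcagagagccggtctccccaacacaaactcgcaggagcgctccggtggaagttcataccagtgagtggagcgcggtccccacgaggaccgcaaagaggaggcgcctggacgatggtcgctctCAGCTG
Isl1, chr13:116309639-116309938, minus strand: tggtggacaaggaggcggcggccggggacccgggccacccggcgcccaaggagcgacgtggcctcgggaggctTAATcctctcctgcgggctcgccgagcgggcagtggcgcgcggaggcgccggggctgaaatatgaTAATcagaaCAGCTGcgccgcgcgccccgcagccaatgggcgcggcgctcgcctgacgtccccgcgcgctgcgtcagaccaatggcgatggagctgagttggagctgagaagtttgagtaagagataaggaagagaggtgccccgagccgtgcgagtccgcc
The Pdx1 window held 0 TAAT and 3 CANNTG matches, 2 of them next to each other, and the Mnx1 window held 1 and 3. The Isl1 window held 2 TAAT matches and 1 CANNTG match, and that of Nkx6-1 held neither motif. Among all 32851 promoter windows of the same length, 58.0% held TAAT and 72.3% held CANNTG, so the motifs are common and the matches are a description of these windows only.

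The first comparison asked how the 10 factors were distributed over the hormone groups, with UMIs summed per library and group and the 4 libraries as blocks. Against α cells, 7 of the 10 were higher in β cells, Isl1 was lower, and Nkx2-2 and Rfx6 did not pass the test. Against δ cells 7 were higher and Isl1 and Rfx6 lower, and against PP cells 8 were higher and Isl1 lower. These counts include Mnx1, whose calls are not read as results, and the counts without it are given with its levels below. Of all 11738 genes tested, 30.9% were called higher and 30.8% lower in β than in α cells, 29.5% and 30.4% against δ cells, and 26.6% and 25.8% against PP cells. The median log2 fold change of the 10 was 0.48, 0.69 and 1.28 in these 3 contrasts, where that of all genes tested was -0.01, -0.01 and 0.01, and the former do not depend on the exact value of Mnx1, which has few UMIs outside β cells. CPM were taken over the UMIs of all genes except Ins1, Ins2, Gcg, Sst and Ppy, and calls are edgeR quasi-likelihood calls at an adjusted p under 0.05. Scaling to total counts without TMM moved the median of all genes to -0.16 against δ and 0.15 against PP cells, and turned no called direction among the 10 genes. Each library is of another genotype or diet, so the p values measure the spread between groups of cells across those 4 conditions. Without the WT HFD library, which stood apart, 1 call among the contrasts of β with α, δ and PP cells changed for the 10 genes, that of Foxa2 against PP cells.

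Pdx1, Nkx6-1 and Mnx1 carried the largest differences. Pdx1, which binds the insulin promoter and is needed for the pancreas to form (ENSMUSG00000029644, chromosome 5, 147269959 to 147275848, plus strand), stood in β cells at 179.6 CPM in WT and 159 in HH on SCD and 232 in WT and 185 in HH on HFD. In δ cells it was at 99.8, 86.3, 141 and 131 CPM, in PP cells at 13.8, 17.6, 21.6 and 27.1 CPM and in α cells at 6.33, 4.91, 10.0 and 9.48 CPM. Within every library β cells were highest, then δ, PP and α cells, and the ranges over libraries of these 4 groups did not overlap. The log2 fold change of β over α cells was 4.65 (adjusted p = 7.7e-20), that over PP cells 3.07 (adjusted p = 4.9e-16) and that over δ cells 0.88 (adjusted p = 8.5e-10). Endothelial cells held 1.75 to 3.78 CPM, and after subtraction of free RNA α cells kept a mean of 5.54 CPM.

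Nkx6-1, a repressor of non-β endocrine fates (ENSMUSG00000035187, chromosome 5, 101658139 to 101664996, minus strand), was at 479 CPM in WT and 468 in HH on SCD and 566 in WT and 418 in HH on HFD in β cells. PP cells followed with 118, 98.5, 146 and 107 CPM, and α cells had 31.9, 33.5, 30.5 and 28.4 CPM. In δ cells it was at 12.5, 5.78, 8.11 and 12.2 CPM, from 12 to 30 UMIs per library, which overlapped the 1.75 to 10.1 CPM of endothelial cells. The order of Nkx6-1 thus differed from that of Pdx1, since the δ cells, second for Pdx1, overlapped the endothelial cells for Nkx6-1. β cells exceeded PP cells by a log2 fold change of 1.90 (adjusted p = 6.2e-13), α cells by 3.96 (adjusted p = 2.2e-18) and δ cells by 5.77 (adjusted p = 3.2e-19), and PP cells exceeded α cells by 2.05 (adjusted p = 3.6e-11). With the δ level so close to that of free RNA, the size of the δ contrast is uncertain, and over 14 alternatives it ran from 5.59 to 7.06, the latter after subtraction of free RNA.

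Mnx1, a homeodomain factor needed for β cells to keep their fate (ENSMUSG00000001566, chromosome 5, 29473034 to 29478470, minus strand), was nearly restricted to the insulin cells among the groups measured. It stood in β cells at 21.9 CPM in WT and 21.9 in HH on SCD and 25.1 in WT and 21.4 in HH on HFD, from 527, 500, 363 and 659 UMIs. Over all 4 libraries it had 10 UMIs in α, 1 in δ and 2 in PP cells. The ratio of pooled CPM was 28.1 over α (interval 15.2 to 58.7, counting error only), 57.1 over PP (interval 15.8 to 472) and 175 over δ cells (interval 31.3 to 6899.9). Mnx1 passed the filter on low counts through its β cell sums alone, so its edgeR calls against the other groups are not read as results. Of the other 9 factors, 6 were called higher in β than in α cells, 6 than in δ cells and 7 than in PP cells.

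**Figure D1:**
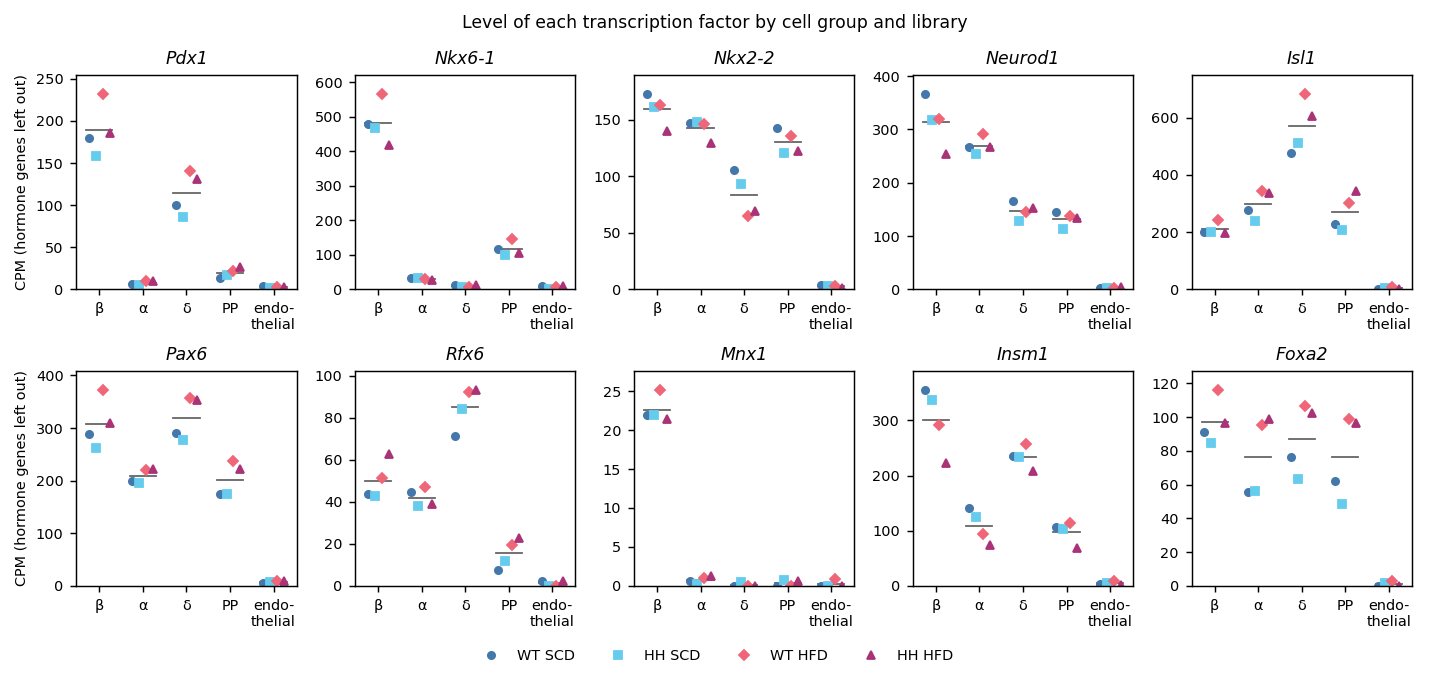
Level of each of the 10 transcription factors in CPM (over the UMIs of all genes but the 5 hormone genes, linear axes from 0) in β, α, δ, PP and endothelial cells, with 1 point per library and a grey line at the mean of the 4 libraries. Pdx1, Nkx6-1 and Mnx1 stand highest in β cells, with a second level of Pdx1 in δ and of Nkx6-1 in PP cells, while Isl1 and Rfx6 stand highest in δ cells.

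Insm1 and Pax6 were shared between β and δ cells. Insm1, a zinc finger repressor of the endocrine lineage (ENSMUSG00000068154, chromosome 2, 146221921 to 146225020, plus strand), was at 354 CPM in WT and 337 in HH on SCD and 291 in WT and 222 in HH on HFD in β and at 235, 233, 257 and 208 CPM in δ cells. In α cells it stood at 140.4, 125, 94.2 and 73.9 CPM and in PP cells at 108, 103, 114 and 68.7 CPM, and neither range reached that of β or δ cells. β cells were higher than α cells by a log2 fold change of 1.49 (adjusted p = 1.2e-11), than PP cells by 1.47 (adjusted p = 1.6e-10) and than δ cells by 0.50 (adjusted p = 1.0e-04), although the β and δ ranges overlapped. Pax6, a paired homeodomain factor that drives hormone genes in α and β cells (ENSMUSG00000027168, chromosome 2, 105668900 to 105697364, plus strand), was at 288 CPM in WT and 261 in HH on SCD and 371 in WT and 309.9 in HH on HFD in β and 289.8, 277, 356 and 352 CPM in δ cells. The Pax6 difference between β and δ cells did not pass the test, with a log2 fold change of 0.09 (adjusted p = 0.24) that became -0.06 with total counts, and the 2 ranges overlapped. Its levels of 195 to 222 CPM in α and 175 to 237 CPM in PP cells were lower than those of β cells, by log2 fold changes of 0.56 (adjusted p = 2.7e-07) and 0.46 (adjusted p = 1.3e-05).

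Isl1 and Rfx6 were higher in δ than in β cells. Isl1, a LIM homeodomain factor of all islet endocrine cells (ENSMUSG00000042258, chromosome 13, 116298281 to 116309689, minus strand), was at 478 CPM in WT and 511 in HH on SCD and 682 in WT and 606 in HH on HFD in δ cells. It stood at 278, 238, 344 and 337 CPM in α, 227, 208, 303 and 345 CPM in PP and 202, 202, 241 and 197 CPM in β cells. δ cells lay above all others in every library, and β cells were the lowest group in every library. The log2 fold change of β minus δ was -1.28 (adjusted p = 4.1e-12), β minus PP gave -0.49 (adjusted p = 3.0e-05) and β minus α gave -0.48 (adjusted p = 1.4e-05), while α and PP cells did not differ beyond their spread (0.01, adjusted p = 0.97). Rfx6, a winged helix factor upstream of much of the endocrine programme (ENSMUSG00000019900, chromosome 10, 51677756 to 51730432, plus strand), was at 71.5 CPM in WT and 84.1 in HH on SCD and 92.6 in WT and 93.1 in HH on HFD in δ and 43.8, 42.8, 51.2 and 62.9 CPM in β cells, without overlap. α cells had 44.6, 37.8, 46.9 and 38.9 CPM and PP cells 7.74, 12.0, 19.6 and 22.7 CPM, the latter from 9, 17, 19 and 36 UMIs. The log2 fold change of β minus δ was -0.62 (adjusted p = 6.2e-05) and that of β minus PP 1.56 (adjusted p = 2.4e-07), while that of β minus α, 0.26 (adjusted p = 0.059), missed the threshold and passed it under 6 of 14 alternatives.

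Neurod1, Nkx2-2 and Foxa2 differed little between β and α cells, with log2 fold changes of at most 0.40. Neurod1, a basic helix-loop-helix activator of the insulin gene (ENSMUSG00000034701, chromosome 2, 79452521 to 79456751, minus strand), was at 366 CPM in WT and 317 in HH on SCD and 320.1 in WT and 254 in HH on HFD in β and 267, 254, 291 and 267 CPM in α cells. It was higher in β cells in 3 of 4 libraries, the exception being HH HFD, with a log2 fold change of 0.22 (adjusted p = 0.01), and without WT SCD the adjusted p was 0.079 and without HH SCD 0.066. Its levels of 128 to 165 CPM in δ and 114 to 145 CPM in PP cells were below both, with β minus δ at 1.23 (adjusted p = 5.8e-12) and β minus PP at 1.09 (adjusted p = 2.1e-10). The Neurod1 gene overlaps Cerkl on the same strand in the GENCODE annotation, so how reads of the shared stretch were assigned is uncertain.

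Nkx2-2, a homeodomain factor that represses as well as activates islet genes (ENSMUSG00000027434, chromosome 2, 147177546 to 147194243, minus strand), was at 173 CPM in WT and 161 in HH on SCD and 163 in WT and 140.5 in HH on HFD in β, 147, 148, 147 and 129 CPM in α and 143, 120.4, 136 and 123 CPM in PP cells. β cells were highest in each library, but the log2 fold changes of 0.17 (adjusted p = 0.082) over α and 0.14 (adjusted p = 0.2) over PP cells missed the threshold. δ cells stood apart for Nkx2-2, at 106, 93.0, 64.9 and 69.2 CPM and 1.07 (adjusted p = 1.2e-09) below β cells. Foxa2, a forkhead pioneer factor (ENSMUSG00000037025, chromosome 2, 148042877 to 148046969, minus strand), was at 91.4 CPM in WT and 84.8 in HH on SCD and 116 in WT and 96.6 in HH on HFD in β cells and overlapped the ranges of 55.4 to 99.1 CPM in α, 63.2 to 107 CPM in δ and 48.6 to 98.9 CPM in PP cells. β cells were highest for Foxa2 in 3 of 4 libraries. In HH HFD their 96.6 CPM lay below 99.1 in α and 102 in δ cells and beside 96.4 in PP cells. With the library as a block, Foxa2 was called higher in β than in α, δ and PP cells, by log2 fold changes of 0.40 (adjusted p = 3.7e-04), 0.33 (adjusted p = 0.0033) and 0.24 (adjusted p = 0.045). These 3 calls were lost without the library block, at adjusted p values of 0.13, 0.20 and 0.43. The call over δ cells was also lost with total counts (adjusted p = 0.14), and that over PP cells under 6 of 14 alternatives, with adjusted p values of 0.082 without WT SCD, 0.31 without HH SCD and 0.058 without WT HFD among them.

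Among the non-β groups, 5 of the 10 were called lower in α than in δ cells, where 22.1% of all genes were called lower and 21.5% higher. Nkx6-1, Neurod1 and Nkx2-2 were higher in α cells, by log2 fold changes of 1.82 (adjusted p = 1.8e-08), 1.01 (adjusted p = 5.8e-10) and 0.90 (adjusted p = 8.5e-08). For Nkx6-1 this ran from 1.56 to 2.84 over the alternatives, again highest after subtraction of free RNA. Mnx1 was also called higher (adjusted p = 0.046), but it passed the filter on low counts through its β cell sums alone, so this call is not read as a result. It had at most 4 UMIs per library in either group, so no fold is given. Its call was lost under 9 of 14 alternatives, with adjusted p values up to 0.22 without HH HFD. Lower in α cells were Pdx1, with α minus δ at -3.77 (adjusted p = 9.8e-17), Insm1 at -0.99 (adjusted p = 4.9e-08), Rfx6 at -0.88 (adjusted p = 8.0e-06), Isl1 at -0.80 (adjusted p = 2.9e-08) and Pax6 at -0.47 (adjusted p = 1.2e-05). PP cells differed from α cells in 4 genes, with Pdx1 and Nkx6-1 higher and Rfx6 and Neurod1 lower, where 13.6% of all genes were called higher and 12.7% lower. Against δ cells, PP cells were higher in Nkx6-1 and Nkx2-2 and lower in Pdx1, Rfx6, Insm1, Isl1 and Pax6, where 16.1% of genes were called in each direction. These last 2 contrasts were added after the data were seen.

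The share of cells with a UMI was taken after thinning each cell to 3000 UMIs. In β cells, insulin genes held 54.4% to 55.8% of UMIs, so fewer of the 3000 are left for other genes than in the other groups, and shares of different groups are not on an equal footing. At least 1 UMI of Nkx6-1 was found in 49.1%, 44.3%, 50.3% and 43.0% of β cells, against 4.24%, 1.12%, 2.11% and 1.57% of endothelial cells. For Pdx1 the shares of β cells were 20.9%, 18.1%, 27.6% and 22.7%, against 0%, 0%, 0% and 0.524% of endothelial cells. Without thinning, at a median depth of 26274, 26182, 29637 and 24136 UMIs, 98.3%, 97.7%, 99.4% and 96.9% of β cells had a UMI of Nkx6-1 and 84.2%, 80.6%, 91.2% and 83.7% one of Pdx1. The endothelial cells, at 6071.5, 5812, 7063.5 and 6068 UMIs, had a UMI of Nkx6-1 in 6.78%, 1.12%, 3.52% and 4.71% and one of Pdx1 in 2.54%, 1.12%, 2.11% and 1.57%. Mnx1 was found in 2.60%, 2.88%, 3.31% and 2.86% of thinned β cells and in 0% of δ cells of each library.

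**Figure D2:**
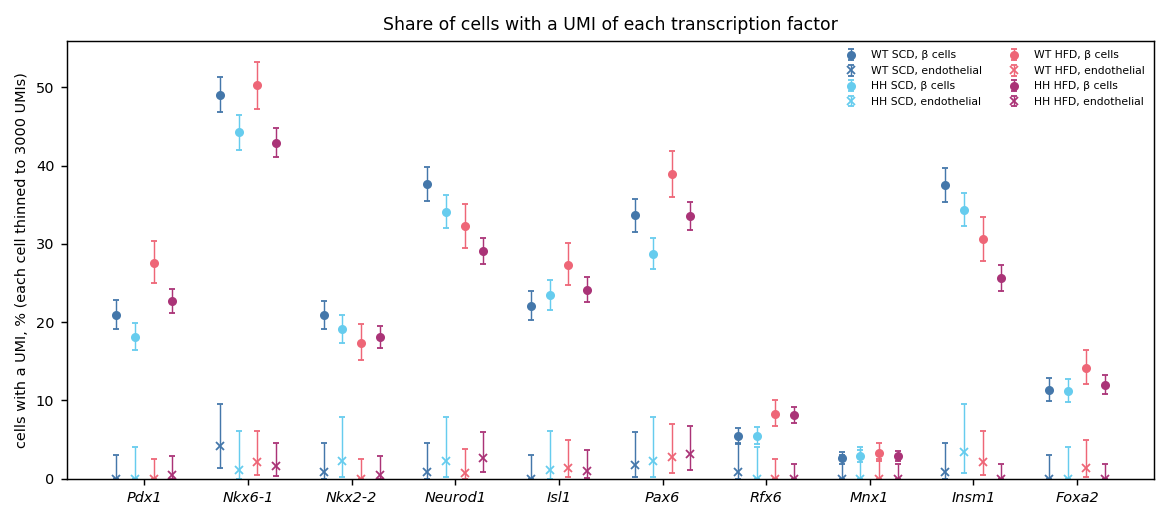
Share of cells with at least 1 UMI of each transcription factor after thinning each cell to 3000 UMIs, for β cells (circles) and endothelial cells (crosses) of each library, with exact 95% binomial intervals that cover counting error only. The shares in β cells stand above those in endothelial cells, with Nkx6-1 at 43.0% to 50.3% and Mnx1 lowest at 2.60% to 3.31%.

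As values on that same footing, cells of each hormone group on average held UMIs of more than 1 of the factors. At 3000 UMIs, β cells had a mean of 2.41, 2.22, 2.50 and 2.19 of the 10 factors, and 7.58%, 8.28%, 5.25% and 9.20% had none. Means were 1.79 to 1.94 in α, 2.48 to 2.88 in δ and 1.55 to 2.03 in PP cells, and 0.0932 to 0.124 in endothelial cells. A UMI of both Pdx1 and Nkx6-1 was found in 10.9%, 8.23%, 12.9% and 10.7% of β cells and in 0% to 1.03% of δ cells. Pdx1 without Nkx6-1 was found in 10.0%, 9.92%, 14.7% and 12.0% of β cells and in 25%, 17.2%, 30.4% and 20.9% of δ cells. Nkx6-1 without Pdx1 was found in 38.2%, 36.0%, 37.4% and 32.3% of β cells and in 0.324% to 2.24% of δ cells. These shares depend on depth. At 6000 UMIs both were found in 27.5%, 24.4%, 32.2% and 26.0% of β cells. Pdx1 without Nkx6-1 was then found in 11.5%, 10.3%, 11.9% and 13.1%. The lack of a UMI is therefore not read as absence of a factor.

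The comparison of HH with WT in β cells asked whether the Pax4 allele went with a change of the factors on each diet. In SCD, 9 of the 10 log2 ratios of HH over WT lay below 0, as did 5523 of the 8600 genes that reached a mean of 10 CPM. The median was -0.08 for the 10 and -0.04 for those 8600 genes. None of the 10 had an HH level at or under 80% of WT or the same ratio in the other direction. In HFD, 9 of the 10 lay below 0, as did 6698 of the 8600 genes. The median of the 10 was -0.28, and 4 had an HH level at or under 80% of WT, namely Nkx6-1, Insm1, Neurod1 and Pdx1. All genes were shifted too, with a median of -0.15 in HFD, where 17.7% of genes were lower and 2.78% higher in HH by at least that ratio, against 2.15% and 0.884% in SCD. Relative to the median of all genes, 6 of the 10 were lower in HH SCD and 9 of 10 in HH HFD. There is no test with 1 library per group, and the intervals cover counting error only.

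In HFD, Nkx6-1 was at 566 CPM in WT and 418 in HH, a log2 ratio of -0.44 (interval -0.48 to -0.40), or -0.29 relative to the median of all genes. Insm1 was at 291 and 222 CPM, with a ratio of -0.39 (interval -0.45 to -0.33). Neurod1 was at 320.1 and 254 CPM, with -0.34 (interval -0.39 to -0.28), and Pdx1 at 232 and 185 CPM, with -0.32 (interval -0.39 to -0.26). Insm1, Neurod1 and Pdx1 lay -0.24, -0.18 and -0.17 from the median of all genes. Isl1, Foxa2, Pax6, Mnx1 and Nkx2-2 had smaller ratios of -0.29, -0.26, -0.26, -0.23 and -0.21. Rfx6 went the other way, from 51.2 CPM (741 UMIs) in WT to 62.9 CPM (1938 UMIs) in HH, a ratio of 0.30 (interval 0.17 to 0.42), above the ratio of 96.7% of genes. Over 11 alternatives for cells and scaling it ranged from 0.24 to 0.40, and that of Nkx6-1 from -0.50 to -0.34.

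Values of these HFD libraries that moved with the ratios were the median depth of β cells, 29637 UMIs in WT and 24136 in HH, and the share of mitochondrial UMIs, with medians of 4.90% and 3.98%. Their part in the ratios was not tested. With size factors from medians of ratios the median of all genes moved to -0.05, the share of genes at or under 80% of WT to 7.53% and the median of the 10 factors to -0.18, and 1 factor in place of 4 was at or under 80%. The distance between the median of the 10 and that of all genes, which scaling cannot move, was -0.12. Where only β cells with little of the other hormones were kept, the median of the 10 was -0.31, that of all genes -0.17 and the share of genes at or under 80% of WT 24.1%.

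In SCD, Neurod1 had the lowest ratio, at 366 CPM in WT and 317 in HH and -0.21 (interval -0.25 to -0.16). Pdx1 was at 179.6 and 159 CPM, with -0.18 (interval -0.24 to -0.12), and Pax6 at 288 and 261 CPM, with -0.14 (interval -0.19 to -0.09). Foxa2, Nkx2-2 and Insm1 were at -0.11, -0.10 and -0.07. Intervals included 0 for Nkx6-1 (-0.07 to 0.00), Rfx6 (-0.16 to 0.09), Isl1 (-0.06 to 0.06) and Mnx1 (-0.18 to 0.18). No factor had intervals clear of 0 in opposite directions in the separate diets.

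**Figure D3:**
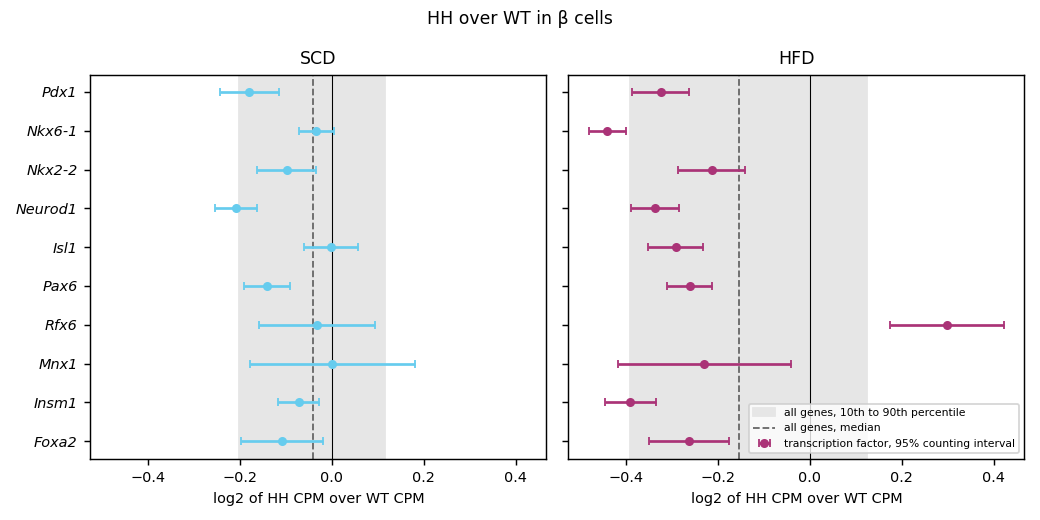
Log2 ratio of HH over WT CPM in β cells for each transcription factor, in SCD and in HFD, with exact 95% counting intervals. Dashed lines mark the median of all 8600 genes, -0.04 in SCD and -0.15 in HFD, and grey bands their 10th to 90th percentile. In HFD 9 of the 10 lie left of the dashed line, with Nkx6-1 at -0.44 furthest out, and Rfx6 lies at 0.30.

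The share of thinned β cells with a UMI was compared in the same way. In HFD it was lower in HH with intervals apart for 4 of the 10 factors, as it was for 4.93% of the 8600 genes that reached 10 CPM in β cells. Nkx6-1 was found in 50.3% of WT and 43.0% of HH β cells, Pax6 in 39.0% and 33.5%, Pdx1 in 27.6% and 22.7%, and Insm1 in 30.6% and 25.6%. In SCD it was so for 2 factors, Nkx6-1 with 49.1% and 44.3% and Pax6 with 33.6% and 28.7%, and for 2.12% of genes. The interval of the CPM ratio of Nkx6-1 in SCD included 0. Whether the intervals of a gene come apart also depends on its level. Without thinning the shares were lower in HH with intervals apart for 14.5% of genes in SCD and 74.5% in HFD, at depths that differed between the libraries. No difference is read from unthinned shares. The shares of Rfx6 in HFD, 8.29% in WT and 8.11% in HH, and of Nkx2-2, 17.4% and 18.1%, did not follow their CPM, and no order is read from them.

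In α and δ cells, which had fewer cells and wider intervals, 8 of the 10 genes passed the minimum of 10 CPM (Mnx1 did not in either, nor Pdx1 in α and Nkx6-1 in δ cells). In α cells in SCD none of the 8 was at or under 80% of WT or past that ratio in the other direction, where 9.68% of genes were lower and 5.41% higher by it. In HFD Insm1 was, at 94.2 CPM in WT and 73.9 in HH and at -0.35 (interval -0.61 to -0.09), where 11.5% and 6.83% of genes were. In δ cells Neurod1 was at 165 CPM in WT and 128 in HH in SCD, with -0.37 (interval -0.59 to -0.15), where 11.9% of genes were lower and 8.64% higher by that ratio. In HFD no factor was in δ cells, where 14.4% and 12.5% of genes were. Medians of the 8 genes were -0.06 and -0.11 in α cells and -0.13 and -0.04 in δ cells, in SCD and HFD. The HFD ratio of Insm1 was below 0 with an interval clear of 0 in β, α and δ cells, at -0.39, -0.35 and -0.31 (interval -0.52 to -0.09). That of Nkx6-1 was -0.44 in β cells and -0.10 (interval -0.55 to 0.35) in α cells. In PP cells, of which WT HFD held 67, Nkx6-1 was at -0.46 (interval -0.79 to -0.13) from 142 UMIs in WT and 169 in HH, and Insm1 at -0.73 (interval -1.13 to -0.34) from 111 and 109. These 2 of the 9 factors with 10 CPM or more in PP cells were at or under 80% of WT, and Pdx1, at 0.33 (interval -0.46 to 1.15), was past that ratio above WT, where 15% of genes were lower and 17.8% higher. The other 6 had HFD ratios of -0.15 to 0.21 in PP cells, and the median of all genes was 0.02. In SCD 2 of the 9, Neurod1 and Foxa2, were lower by that ratio and 2, Pdx1 and Rfx6, higher, where 18.6% and 15.1% of genes were. Those 9 ratios ran from -0.35 to 0.63, with a median of -0.12 where that of all genes was -0.02.

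Between the diets, which differ in age as well, the values have no test. Of the 7 factors that reached 10 CPM in β, α and δ cells alike, Foxa2, Pax6 and Rfx6 had ratios of HFD over SCD above 0 and Nkx2-2 ratios below 0 in all 3 groups and both genotypes. How many of all genes kept a single direction in these ratios is not given, so no excess over them is read. Intervals included 0 for Pax6 in WT α cells (-0.02 to 0.30), for Nkx2-2 in WT α cells and for Rfx6 in α cells of both genotypes and in HH δ cells. Insm1 had ratios below 0 in β and α cells of both genotypes. Log2 ratios of HFD over SCD for Foxa2 were 0.34 in WT and 0.19 in HH β cells, 0.78 and 0.82 in α cells, and 0.48 and 0.70 in δ cells. For Insm1 they were -0.28 and -0.60 in β cells and -0.58 and -0.76 in α cells, but 0.13 and -0.17 in δ cells. Nkx6-1 in β cells had 0.24 in WT and -0.16 in HH, and Pdx1 had 0.37 and 0.22. Pax6 had 0.37 and 0.25, and Rfx6 0.23 (interval 0.09 to 0.36) in WT and 0.56 (interval 0.44 to 0.67) in HH. Of the 10 ratios in HH β cells, that of Rfx6 was the highest and that of Insm1, at -0.60, the lowest and the furthest from 0. The other 4, Neurod1, Nkx2-2, Isl1 and Mnx1, had -0.19, -0.09, 0.25 and 0.20 in WT and -0.32, -0.20, -0.04 and -0.03 in HH. The median over the 10 factors was 0.23 in WT and -0.04 in HH β cells, and that of all genes 0.00 and -0.10. Each library enters 2 of these ratios and those of HH over WT, so they are not independent.

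The study names Gc, Aldh1a3 and Serpina7 as markers of lost β cell identity, and the factors were compared between β cells with and without a UMI of any of them. Cells with such a UMI made up 8.80%, 9.67%, 15.01% and 35.3% of thinned β cells, and 0% to 1.57% of endothelial cells. α, δ and PP cells held such a UMI in 28.8% to 49.3%. In HH HFD, with 974 cells with and 1787 without, the log2 ratios of with over without were -0.16 for Pdx1, -0.05 for Nkx6-1, -0.12 for Neurod1 and 0.02 for Insm1, and the intervals of all 10 factors included 0. Intervals did not include 0 for Insm1 in WT HFD, at 406 CPM with and 262 CPM without such a UMI (log2 ratio 0.63, interval 0.28 to 0.97), and for Neurod1 in WT SCD (log2 ratio -0.36, interval -0.73 to -0.01). They are given as values only. For Mafa, a β cell activator outside the list, the ratio in HH HFD was -0.39 (interval -0.54 to -0.24).

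The HH over WT ratios were then taken within each set, as values. In HFD, where the median of all genes in β cells was -0.15, the sets gave the following. Without those UMIs, Nkx6-1 had a ratio of -0.29 (interval -0.43 to -0.15), Pax6 -0.29 (interval -0.45 to -0.12), Pdx1 -0.23 (interval -0.44 to -0.02) and Neurod1 -0.22 (interval -0.40 to -0.04). With those UMIs, Nkx6-1 had -0.42 (interval -0.69 to -0.13) and Insm1 -0.81 (interval -1.16 to -0.46), the latter from 90 UMIs in WT and 313 in HH, and Foxa2 had -0.65 (interval -1.23 to -0.03). For Nkx6-1 and Pax6 the intervals were below 0 in both sets, with Pax6 at -0.45 (interval -0.78 to -0.11) in cells with those UMIs, whereas that of Insm1 without those UMIs, -0.20 (interval -0.40 to 0.00), reached 0. The other HFD intervals in either set included 0. Without and with those UMIs, Rfx6 was at 0.13 (interval -0.28 to 0.54) and -0.45 (interval -1.22 to 0.40). Nkx2-2 was at 0.03 (interval -0.23 to 0.30) and 0.24 (interval -0.34 to 0.88). In all β cells without thinning, Rfx6 and Nkx2-2 were at 0.30 and -0.21. In SCD, where the median of all genes was -0.04, ratios without those UMIs were -0.19 (interval -0.33 to -0.05) for Neurod1, -0.19 (interval -0.35 to -0.04) for Pax6 and -0.15 (interval -0.27 to -0.03) for Nkx6-1. Those of the other 7 factors without those UMIs, and of all 10 with them, had intervals in SCD that included 0. Whether the ratios differed between the diets or between the sets was not tested.

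**Figure D4:**
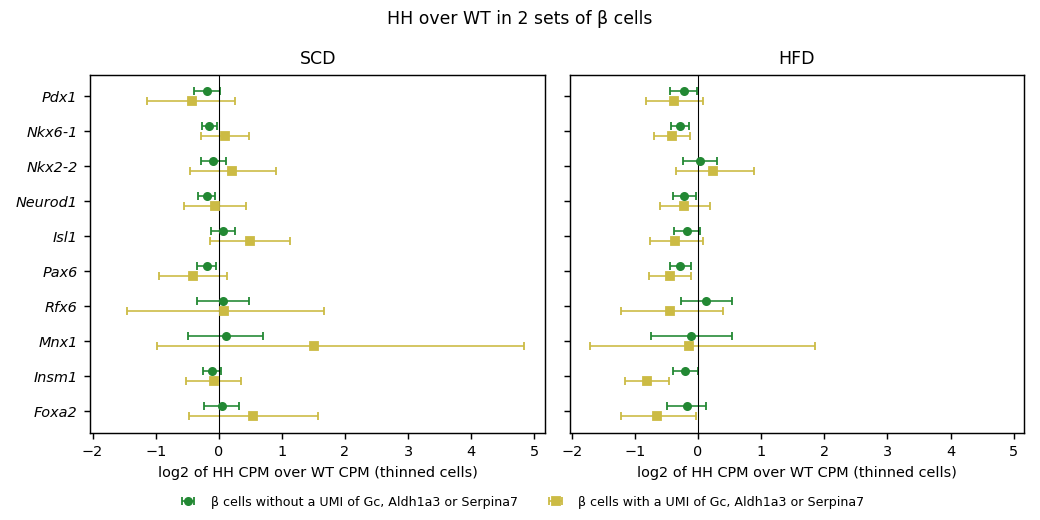
Log2 ratio of HH over WT CPM in SCD and HFD for each transcription factor, separately in β cells without (circles) and with (squares) a UMI of Gc, Aldh1a3 or Serpina7 after thinning to 3000 UMIs, with exact 95% counting intervals. In HFD Nkx6-1 lies at -0.29 without and -0.42 with those UMIs, and the intervals of most factors with those UMIs are wide, as 163 WT cells carry them.

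The other genes of the programme give the setting of these values. Of 30 further islet transcription factors and cofactors, 27 were tested and 7 were higher and 10 lower in β than in α cells, led, on the log2 scale, by the α cell factors Irx1 (-8.76, adjusted p = 1.8e-20) and Pou3f4 (-6.40, adjusted p = 5.5e-13) on one side and Mafa (6.27, adjusted p = 1.8e-20) on the other. Of 12 β cell genes known as targets of the factors, 11 were tested and 10 were higher in β than in α cells, with Slc2a2, the glucose transporter GLUT2, at a log2 fold change of 6.50 (adjusted p = 1.7e-21) and Ucn3, a peptide of mature β cells, at 6.26 (adjusted p = 1.5e-19). In HH over WT in HFD β cells, 5 of 11 targets that reached 10 CPM were at or under 80% of WT, with log2 ratios of Slc2a2 at -0.97, Mafa at -0.68 and the zinc transporter gene Slc30a8 at -0.51, and 1, Iapp, was higher at 0.53, where 17.7% and 2.78% of all genes were. Of 18 further transcription factors with 10 CPM or more, 2 were at or under 80%, against the same 17.7% of all genes, namely Mafa, which stands in both lists, and Ldb1, the cofactor that binds Isl1, with Ldb1 at -0.34 (interval -0.47 to -0.20). Of 7 genes known to be held down in mature β cells, 6 were tested. In β against α cells 5 were lower and 1, Aldh1a3, higher. In HFD β cells 2 of the 7 reached 10 CPM, and 1 of them, the peptide hormone gene Pyy, was past that ratio above WT at 0.45 and none below it, against the same 2.78% and 17.7% of all genes.

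Over the 20 sums of 4 hormone groups and endothelial cells in 4 libraries, the gene whose log2(CPM + 1) profile was most like that of each factor was taken among 9297 genes that reached a mean of 10 CPM. It was Wfs1 for Pdx1 (Pearson r = 0.974), Kdelr2 for Nkx6-1 (0.968), Ucn3 for Mnx1 (0.978), Cdh1 for Insm1 (0.990) and Abcc8, the sulphonylurea receptor, for Pax6 (0.994). It was Soga3 for Isl1 (0.995), Pex5l for Rfx6 (0.977), Gm20208 for Neurod1 (0.994), Tm4sf4 for Nkx2-2 (0.992) and 2310030G06Rik for Foxa2 (0.990). G6pc2, a β cell glucose phosphatase, was second for Mnx1 (0.973). The profiles share libraries, depth and free RNA, and the values are a description.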

How the data were processed

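Islets of 4 groups of mice gave 4 libraries (10x Chromium 3′ v3.1 chemistry), 1 per group, each pooled from 2 to 3 mice. The deposited counts are UMI counts per gene and cell barcode that the authors made with Cell Ranger 6.0 (6.0.2 per the file headers) on mm10 (GRCm38), and they were used as deposited. The authors' later removal of free RNA and doublets is not in these values. Cells with under 10% mitochondrial UMIs, 3000 to 50000 UMIs and 2000 to 5000 genes were kept, and 12168 of 22218 barcodes remained after doublets were taken out. Cells placed by hormone had under 3 markers of each of 9 non-endocrine lists. Doublets were ranked by Scrublet (scanpy 1.11.5) and removed at 0.8% of barcodes per 1000 barcodes, which took out 130, 118, 86 and 250 cells. Its automatic threshold marked under 0.5% of cells in both HFD libraries and is an alternative chosen after seeing the data, as are the contrasts of PP with α and δ cells. Endothelial cells had 3 or more of 5 endothelial markers.

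UMIs were summed per library and hormone group into 16 sums and tested with edgeR 4.0.16 (filterByExpr, TMM over genes other than the 5 hormone genes, quasi-likelihood test, library as a block), with Benjamini-Hochberg adjustment over 11738 genes. The step was also run on simulated sums with far fewer changed genes than here and no effect of the library. That run does not show how the step performs on these data. DESeq2 1.42.0 was an alternative. Log2 ratios of CPM between libraries have exact conditional binomial intervals, and shares of cells exact Clopper-Pearson intervals, both at 95% and for counting error only. The members and the other lists were chosen with earlier results of these data known. All 10 members were computed in each comparison, and of the 30 further transcription factors, 12 target genes and 7 genes held down in β cells up to 4 with the largest changes, of which some are not reported here. Positions are from GENCODE on GRCm38, and promoters from RefSeq on GRCm38.p6. Alternatives changed the filters on cells and genes, the hormone rule, doublets, free RNA, scaling, thinning, the library block and the libraries included.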

Additional observations from a re-analysis of the deposited data

How the results depend on the processing

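No called direction of the 10 factors reversed under any alternative run. Of 560 comparisons of a factor between hormone groups under an alternative, 528 kept their call, 20 lost and 12 gained it, all 32 of them for Foxa2, Neurod1, Nkx2-2, Rfx6 and Mnx1. The fit with no replicate block, that is without the library term, gave adjusted p values of 0.13, 0.20 and 0.43 for Foxa2 in β against α, δ and PP cells. It also lost the call of Mnx1 in α against δ cells (adjusted p = 0.053) and changed no other call of a factor. Without TMM, 1654 genes were higher in α than in δ cells in place of 2518.

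In HFD β cells the number of factors at or under 80% of the WT level was 4, but 2 where Iapp and mitochondrial genes also left the CPM, 1 with median-of-ratios size factors, which moved the median of the 10 from -0.28 to -0.18, and 2 with equal weight for each cell. It was 3 with the looser filter on cells and with CPM over all UMIs, 5 in the cells with less RNA of other hormones, and 4 under the other 5 alternatives. Without thinning, the share of HH β cells was lower with intervals apart for 4 factors in place of 2 in SCD and for 9 in place of 4 in HFD, at depths that differed between the libraries, where 14.5% and 74.5% of all genes were lower in this way. The cause of these changes was not tested. Depth limits Mnx1 outside β cells, Nkx6-1 in δ cells and Rfx6 in PP cells. With 1 pooled library per group, no alternative can give the spread between mice.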
